A study of Sus scrofa with 36 samples.

Results

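Immediate-early genes and NR4A receptors were examined in the adrenal glands of pigs kept at thermoneutrality (TN) or exposed to heat stress (HS). The list held 10 genes, FOS, FOSB, JUN, JUNB, EGR1, ATF3, IER2, NR4A1, NR4A2 and NR4A3, defined by name. All 10 had a probe on the array, with 22 probes in all among 60305, found by the gene name, an older symbol, the gene ID (IER2) or the description (FOSB) in the scanner files, or by the RefSeq transcript behind the probe. The deposited value table covered 19 of these 22 probes and 8 of the 10 genes, out of 45348 probes and 10401 named genes in that table. FOSB and ATF3 had no value there and were read from the scanner files.

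RNA of whole adrenal glands, cortex and medulla together, was hybridised with 1 dye to porcine Agilent arrays, 1 array for each of 36 castrated male pigs. The pigs were Creole, Large White or the F1 cross of Large White and Creole, with 6 TN and 6 HS pigs of each breed. The TN pigs lived at 24 °C. The HS pigs were moved to 32 °C according to the protocol, whereas the labels of the arrays give 30 °C, and they were killed 4 or 5 days after the rise. The TN pigs were killed on 2 days before the rise, so that the day of slaughter and the temperature cannot be told apart. Litters were split over the groups in blocks of 4 littermates, and each group filled 2 pens of 3 pigs. Pens, days and parents are not in the labels, so the p-values below measure only the spread between these pigs. In RNA of a whole gland, fewer cells of a type and less RNA per cell cannot be told apart.

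Immediate-early genes are transcribed within minutes of a stimulus from factors already present in the cell, without new protein synthesis, and their transcripts are short-lived. FOS and JUN proteins pair to form the AP-1 transcription factor, EGR1 is a zinc finger transcription factor, and the NR4A receptors are orphan nuclear receptors that act without a known hormone. In the adrenal cortex ACTH, through cyclic AMP, is known to induce several of them, and NR4A receptors bind promoters of steroid synthesis genes. In the chromaffin cells of the medulla, nerve stimulation also induces them.

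The probes that could be tied to coding sequence are shown because they tie each gene to a transcript and, for JUNB, to a strand. For JUN, JUNB and NR4A2 the values below come from the probe shown, whereas for FOS and NR4A3 they come from a brighter probe that is not shown. The letters are those of the array's annotation in the deposited scanner files, 5′ to 3′. Capitals mark 3 letters of the JUNB probe.
FOS: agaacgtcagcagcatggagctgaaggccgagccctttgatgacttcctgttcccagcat
FOSB: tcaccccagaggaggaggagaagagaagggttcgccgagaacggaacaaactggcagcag
JUN: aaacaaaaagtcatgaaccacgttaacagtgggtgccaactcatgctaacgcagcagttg
JUNB: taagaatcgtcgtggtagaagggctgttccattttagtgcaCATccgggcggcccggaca
ATF3: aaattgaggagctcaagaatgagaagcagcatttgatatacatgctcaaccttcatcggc
NR4A2: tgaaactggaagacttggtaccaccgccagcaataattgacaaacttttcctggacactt
NR4A3: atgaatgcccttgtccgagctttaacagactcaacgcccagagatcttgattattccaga
Each probe was 60 bases long. Both JUN probes with a value carried this same sequence under different names, so they are repeat measurements of 1 oligonucleotide. The JUNB probe is written on the strand opposite to the others: the capitals are the complement of the start codon. Whether it takes up labelled JUNB RNA as the other probes take up theirs was not tested, and its values are given with that limit.

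On the pig genome Sscrofa11.1, RefSeq places the genes on chromosomes 1, 2, 5, 6, 7, 9 and 15. IER2 (65909638 to 65912491), JUNB (66214086 to 66219435) and EGR1 (140440829 to 140445302) share chromosome 2. FOSB (51836780 to 51844531) and JUN (153686425 to 153687635) share chromosome 6. NR4A3 lies on chromosome 1 (241569867 to 241611735), FOS on chromosome 7 (98449508 to 98451971), ATF3 on chromosome 9 (130772259 to 130829678) and NR4A2 on chromosome 15 (63487051 to 63506249). NR4A1, on chromosome 5 (17403088 to 17407918), is annotated as a pseudogene in this build, and the other 9 genes as protein coding.

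Between 42437 and 48061 probes were well above background on the TN arrays and between 43586 and 47658 on the HS arrays. The arrays lay on 5 slides, with as many TN as HS arrays on each. All 9 cortex markers had a value, as did 9 of 13 chromaffin markers, DBH, PNMT and CHGA among them, while TH had no named probe. On the 200 probes that best separated the temperatures in the other 35 arrays, 3 of 18 TN pigs (Large White pig 4, Creole pig 4, cross pig 6) lay on the HS side, and 2 of 18 HS pigs (Creole pig 6, Large White pig 5) lay on the TN side.

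Heat stress went with a lower EGR1 level, and none of the other 7 genes with a value passed the test. The EGR1 call ended in 10 of 19 other settings and in 27 of the 36 fits without 1 pig, and JUN passed in 2 of those 36. EGR1 fell by 0.61 on the log2 scale in HS (SE 0.16, 95% interval -0.94 to -0.29, adjusted p = 0.0498 by limma with Benjamini-Hochberg adjustment over all probes). This was 1 of 8 genes, against 0.911% of all probes (413 of 45348) in the same comparison. At an unadjusted p under 0.05, EGR1 and JUN passed, as did the dimmer of 2 NR4A1 probes (unadjusted p = 0.0481 by limma), against 13.5% of all probes. Values below are log2 values of the probe with the highest mean of each gene, in 18 TN and 18 HS pigs, and differences are HS minus TN.

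**Figure D1:**
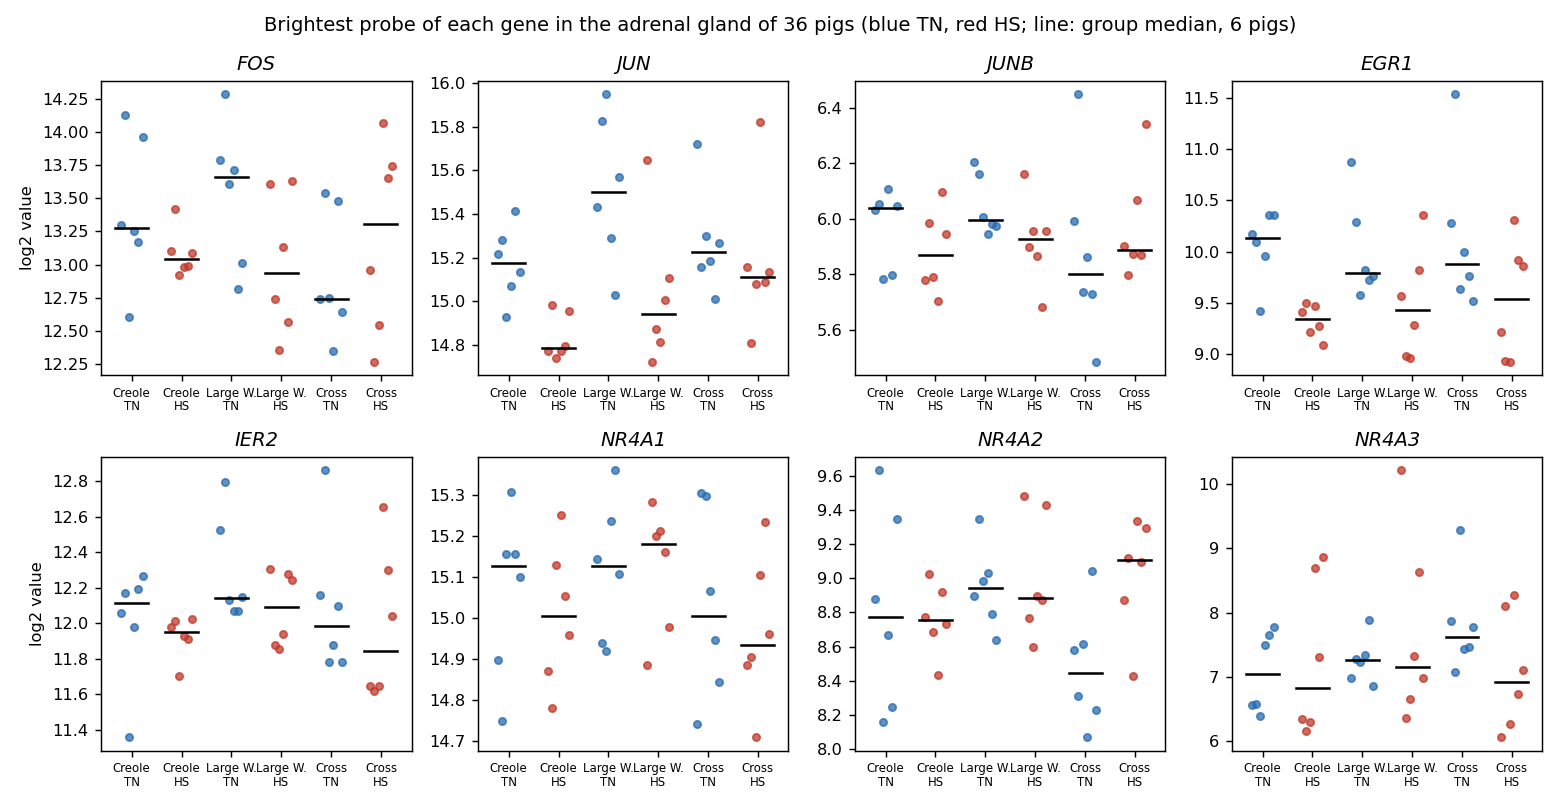
Log2 value of the brightest probe of each of the 8 genes (y axis, own scale per panel) in the 36 pigs, by breed and temperature (x axis, 6 pigs per group, blue TN, red HS, line at the group median). The TN and HS pigs overlap in every panel. For EGR1 the Creole HS group has the lowest median, 9.34, against 10.13 in the Creole TN pigs, while the lowest single pig is a cross HS pig (8.93).

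Among the AP-1 subunits, FOS lay between 12.35 and 14.28 in the TN pigs (median 13.28) and between 12.27 and 14.06 in the HS pigs (median 13.04). These ranges overlapped almost wholly, and 12 of 18 HS pigs were under the TN median. The FOS difference was -0.19 (SE 0.17, 95% interval -0.54 to 0.17, adjusted p = 0.703 by limma), and the other 4 FOS probes gave -0.24 to -0.18. JUN, the usual partner of FOS, lay between 14.93 and 15.95 in TN (median 15.27) and between 14.72 and 15.82 in HS (median 14.97). Among the HS pigs 8 were lower than every TN pig and 16 were under the TN median, with cross HS pig 4 (15.82) and Large White HS pig 1 (15.65) the highest of the HS pigs. The JUN difference was -0.31 (SE 0.09, 95% interval -0.49 to -0.13, adjusted p = 0.0824 by limma) and that of the repeat probe -0.33 (adjusted p = 0.0555). JUN passed the threshold when Large White HS pig 1 (-0.34, adjusted p = 0.0475) or cross HS pig 4 (-0.35, adjusted p = 0.0266) was left out, and in no other leave-out.

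JUNB, which competes with JUN for the same partners, lay between 5.49 and 6.45 in TN (median 5.99) and between 5.68 and 6.34 in HS (median 5.90), close to background, on the probe of reversed strand. The JUNB difference was -0.04 (SE 0.06, adjusted p = 0.862 by limma), with 34 of 36 arrays well above background. FOSB, a relative of FOS, was well above background on 4 TN and 5 HS arrays of 18 each, with a mean of 5.47 ± 0.21 (SD) in TN and 5.54 ± 0.28 in HS. That level is at the limit of what the array could measure, and no FOSB fold is given. ATF3, a stress-induced factor that can pair with JUN, was well above background on 6 of 18 TN arrays (3 Creole, 2 Large White, 1 cross) and on 0 of 18 HS arrays. Its mean was 5.54 ± 0.32 (SD) in TN, and the HS mean of 5.26 ± 0.17 is a background level. Since most TN arrays were also not well above background, no ATF3 difference or test is given. Another JUN probe, of a different sequence, was well above background on 1 array and is not used.

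EGR1 lay between 9.42 and 11.53 in the TN pigs (median 9.98) and between 8.93 and 10.35 in the HS pigs (median 9.34). The groups overlapped, but 10 HS pigs were lower than every TN pig, 16 were under the TN median, and 4 TN pigs were higher than every HS pig. The highest TN value belonged to cross TN pig 2. EGR1 had no other probe on the array against which to check these values. Within slides, the EGR1 difference was -1.27, -0.80, -0.82, -0.30 and -0.21 on slides 1 to 5, with 2 to 4 pigs of each temperature, and with the slide as a block it was -0.61 (adjusted p = 0.0457 by limma). All 5 slides thus ran the same way, with the smaller differences on slides 4 and 5. The differences within slides were not adjusted for breed: on slide 1 the 2 TN pigs were Large White and the 2 HS pigs Creole and cross. The adjusted p lay so near the threshold that leaving out any 1 of 27 of the 36 pigs ended the call, as did leaving out slide 1, 2, 3 or 4, which also leaves fewer arrays (-0.71 to -0.52, adjusted p 0.118 to 0.258). Over the 36 fits without a pig the EGR1 difference lay between -0.67 and -0.53 and its adjusted p between 0.0293 and 0.0845. Leaving out the HS pigs on the TN side of the general response gave -0.60 (adjusted p = 0.0508, without Creole pig 6) and -0.64 (adjusted p = 0.0323, without Large White pig 5).

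IER2, a small nuclear protein whose transcript is induced with FOS, lay between 11.36 and 12.86 in TN (median 12.11) and between 11.62 and 12.65 in HS (median 11.96). The HS range lay inside the TN range. The IER2 difference was -0.13 (SE 0.10, 95% interval -0.33 to 0.07, adjusted p = 0.617 by limma).

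NR4A1, a receptor that ACTH induces in adrenal cells, had 2 probes that disagreed. Its brighter probe lay between 14.74 and 15.36 in TN (median 15.10) and between 14.71 and 15.28 in HS (median 15.02), with a difference of -0.04 (SE 0.06, 95% interval -0.16 to 0.08, adjusted p = 0.846 by limma). Its dimmer probe lay between 10.02 and 13.00 in TN (median 11.13) and between 9.81 and 11.70 in HS (median 11.05), with a difference of -0.40 (SE 0.19, 95% interval -0.79 to -0.0036, adjusted p = 0.365). Over the 36 pigs, with group means subtracted, the 2 probes correlated at r = 0.44. Which of them follows the NR4A1 transcript was not tested, and the brighter one stands for the gene unless the dimmer is named.

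NR4A2, which shares its DNA-binding element with NR4A1, lay between 8.07 and 9.63 in TN (median 8.73) and between 8.43 and 9.48 in HS (median 8.89). Among the HS pigs 14 were over the TN median, and the HS range reached neither end of the TN range. The NR4A2 difference was 0.18 (SE 0.12, 95% interval -0.07 to 0.43, adjusted p = 0.553 by limma), and its other probe gave 0.14. NR4A3 lay between 6.39 and 9.28 in TN (median 7.39) and between 6.06 and 10.22 in HS (median 7.04). On this probe the HS pigs thus held both the lowest values and the highest one, that of Large White HS pig 1. Here 6 HS pigs lay under every TN pig. On the probe of the same sequence 1 did, and on another NR4A3 probe, which followed it at r = 0.99, 0 did. The NR4A3 difference was -0.03 (SE 0.31, 95% interval -0.66 to 0.60, adjusted p = 0.98 by limma), an interval that spans changes of either sign.

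**Figure D2:**
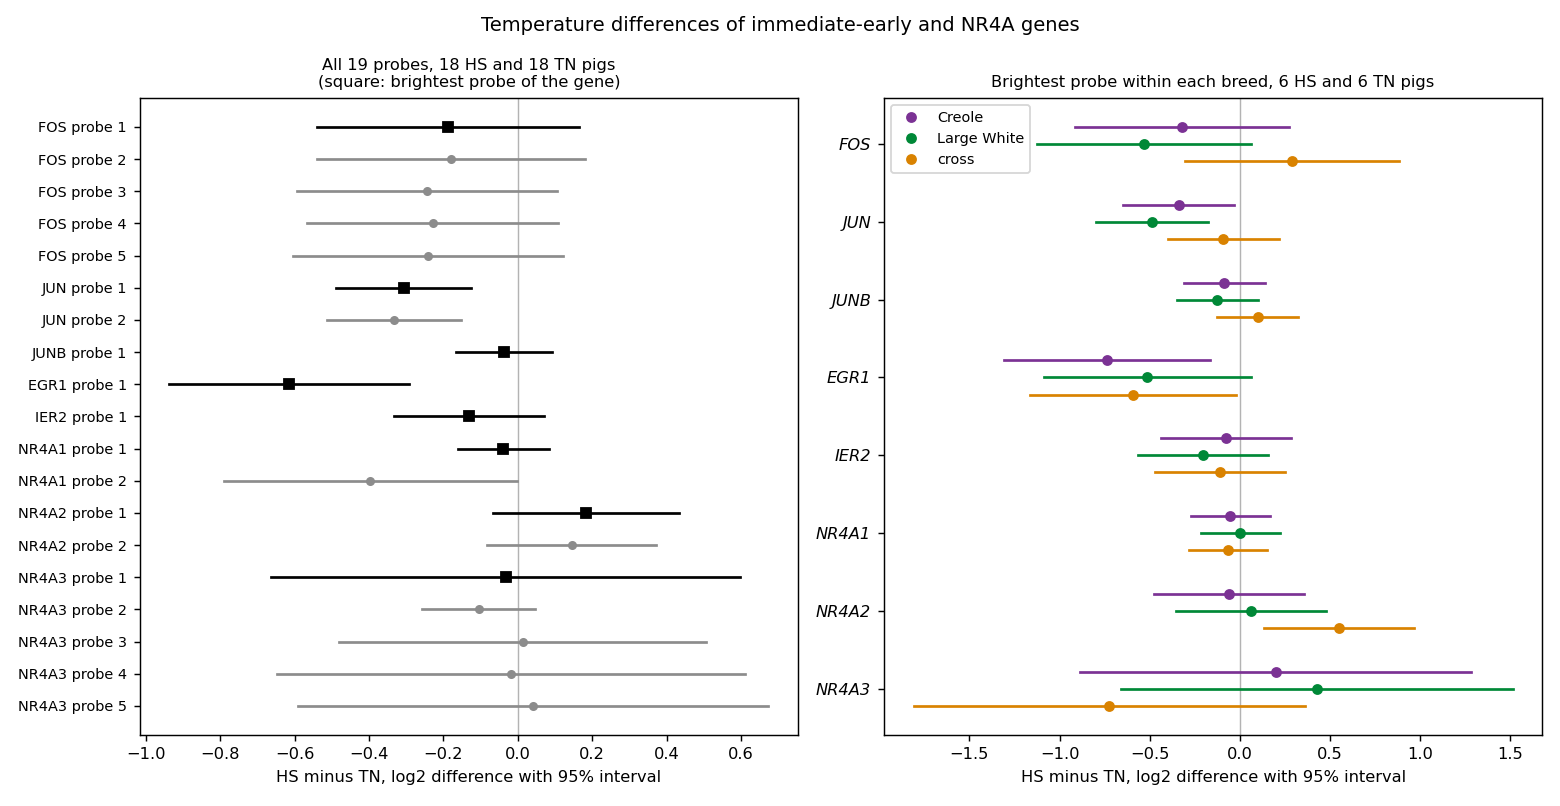
HS minus TN log2 difference with its 95% interval (x axis) for the 19 probes over all breeds (left, 18 HS and 18 TN pigs, squares for the brightest probe of a gene) and for the brightest probe of the 8 genes within each breed (right, 6 HS and 6 TN pigs). EGR1 lies farthest from 0 on the left, at -0.61, the NR4A1 probes differ (-0.04 and -0.40), and the intervals of 4 of the 5 NR4A3 probes are the widest.

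Within each breed, with 6 HS and 6 TN pigs, 0 of the 8 genes passed an adjusted p of 0.05 by limma. At an unadjusted p under 0.05 there were 2 among Creole (EGR1, JUN), 1 among Large White (JUN) and 2 among cross pigs (EGR1, NR4A2). Of all probes, 0% passed for Creole, 0.011% for Large White and 0% for cross pigs, against 4.79%, 6.29% and 12.3% at the unadjusted threshold. The EGR1 difference was -0.74 for Creole (adjusted p = 0.924), -0.51 for Large White (adjusted p = 0.786) and -0.59 for cross pigs (adjusted p = 0.383). In the Creole pigs its HS values lay between 9.09 and 9.49 (median 9.34) and its TN values between 9.42 and 10.36 (median 10.13), so that the groups overlapped through 1 TN pig. JUN had differences of -0.34, -0.49 and -0.09 in the same order of breeds, with adjusted p of 1.00, 0.578 and 0.86.

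The genes did not all keep 1 sign over the breeds. FOS differed by -0.32 for Creole, -0.53 for Large White and 0.29 for cross pigs. NR4A2 differed by -0.06, 0.06 and 0.55, the last with 4 of 6 cross HS pigs above the highest cross TN pig (8.43 to 9.34 against 8.07 to 9.04, unadjusted p = 0.0109, adjusted p = 0.251 by limma). NR4A3 differed by 0.20, 0.43 and -0.72, each with an interval wider than 2 log2 units. The difference between breeds in the response was tested as an interaction over the 45348 probes: 0 of the 8 genes and 0% of all probes passed by limma's F test, with 1914 probes at an unadjusted p under 0.05. The lowest unadjusted p among the 19 probes was 0.076, on the other NR4A2 probe, and its adjusted p was 0.982.

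Between the parental breeds, 0 of the 8 genes passed the test, although 11.5% of all probes did (limma, adjusted p under 0.05). At an unadjusted p under 0.05 (24.4% of all probes) only JUN passed, higher in the Large White pigs by 0.27 (SE 0.11, 95% interval 0.05 to 0.49, adjusted p = 0.113). JUN lay between 14.74 and 15.41 in the 12 Creole pigs (median 14.97) and between 14.72 and 15.95 in the 12 Large White pigs (median 15.20). IER2 followed with 0.22 (adjusted p = 0.27), and the remaining 6 genes lay between 0.03 and 0.30 above the Creole level, with adjusted p of 0.494 or more. The dimmer NR4A1 probe lay on the other side, at -0.23 (adjusted p = 0.622). Against the mean of its parents, the cross passed the test in 0 of the 8 genes by limma, against 0.415% of all probes, with differences between -0.20 (FOS) and 0.12 (NR4A3), and 0 of the 8 at an unadjusted p under 0.05 (11.2% of all probes).

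The groups were ordered by their means, and the steps between neighbours are given as a description, without a test. The SD beside them is that of single pigs in a group, which is larger than the error of a mean of 6. For EGR1 the order ran from cross TN (10.12) through Creole TN, Large White TN, cross HS and Large White HS to Creole HS (9.32), with all TN groups above all HS groups. Its largest step between neighbours, 0.48, compared with a pooled SD within groups of 0.51. For JUN the order ran from Large White TN (15.52) to Creole HS (14.84), with a largest step of 0.24 against an SD of 0.27. For FOS the group means spanned 0.62, with Large White TN highest and cross TN lowest, and for NR4A3 they spanned 0.74 against an SD of 0.97. In FOS, JUNB and NR4A2 the cross TN pigs had the lowest mean of the 6 groups.

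The spread between pigs of the same breed and temperature was wide for most of these genes. The residual SD of NR4A3 was 0.97 on the log2 scale, larger than that of 99.4% of all probes, and after subtracting the group means its highest pig exceeded its lowest 14.5-fold. That range rested on Large White HS pig 1: without it the SD of NR4A3 was 0.84 and the range 6.51-fold. FOS had an SD of 0.53 (larger than 96.8% of probes), EGR1 0.51 (96.4%), NR4A2 0.37 (91.1%), IER2 0.32 (86.7%) and JUN 0.27 (79.8%). JUNB (0.19, 58.1%) and the brighter NR4A1 probe (0.19, 55.3%) were near the median of all probes, 0.18, whereas the dimmer NR4A1 probe had an SD of 0.62 (97.9%). Probes of a gene shared this spread: after subtracting group means the 5 FOS probes correlated at r = 0.95 to 0.99, the NR4A2 pair at 0.97 and 4 NR4A3 probes, 2 of which carry the same sequence, at 0.97 to 0.99. The NR4A3 probe whose sequence is shown, the dimmest of the 5, followed them at r = 0.61 to 0.64.

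The variation between pigs was shared between genes. Over the 36 pigs, with the mean of each breed and temperature group subtracted, 23 of the 28 pairs of genes had a positive Pearson r and 11 pairs passed an adjusted p of 0.05 (2-sided permutation test, 100000 exchanges of pigs within groups, Benjamini-Hochberg over the 28 pairs), 10 of them with r above 0. EGR1 and IER2 varied most closely together (r = 0.87, Spearman rho = 0.88, permutation p = 1e-05, adjusted p = 0.00014), with r above 0 in all 6 groups (0.23 to 0.97). FOS went with IER2 (r = 0.77, adjusted permutation p = 0.000187), NR4A2 (r = 0.76, adjusted permutation p = 0.00014), EGR1 (r = 0.66, adjusted permutation p = 0.00175) and JUNB (r = 0.53, adjusted permutation p = 0.00734). A p of 1e-05 is the smallest these permutations can give. JUNB also went with EGR1 (r = 0.61) and IER2 (r = 0.60), each with an adjusted permutation p of 0.0103, although r of the first fell to 0.43 without the 2 pigs farthest from the JUNB median. On slide 4 the pairs of JUNB ran the other way, with r = -0.53 for EGR1, -0.55 for IER2 and -0.072 for FOS. Without the 2 farthest pigs on the x axis, the pairs of FOS with IER2, NR4A2 and EGR1 had r = 0.71, 0.75 and 0.62, and EGR1 with IER2 0.85.

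Weaker pairs were JUN with IER2 (r = 0.49, adjusted permutation p = 0.023), FOS with JUN (r = 0.48, adjusted permutation p = 0.0319) and IER2 with NR4A2 (r = 0.47, adjusted permutation p = 0.0261). The pair of FOS and JUN, the AP-1 partners, did not pass by rank (Spearman rho = 0.40, adjusted permutation p = 0.0647), had r = 0.36 without the 2 pigs farthest from the FOS median, and ran the other way on slide 5 (r = -0.39). EGR1 and NR4A2, which both went with FOS, had r = 0.31 with each other, which did not pass (adjusted permutation p = 0.136). The only called pair with r below 0 was JUN with the brighter NR4A1 probe (r = -0.44, adjusted permutation p = 0.0261). It no longer passed when slide means were subtracted as well (r = -0.26, adjusted permutation p = 0.221), and was 0.01 with the dimmer NR4A1 probe. That dimmer probe had r = 0.55 with EGR1 and 0.54 with IER2, where the brighter one had 0.13 and 0.03. NR4A3 was in no called pair. Subtracting slide means kept 10 of the 11 pairs and added JUN with NR4A3 (r = 0.46, adjusted permutation p = 0.0337).

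**Figure D3:**
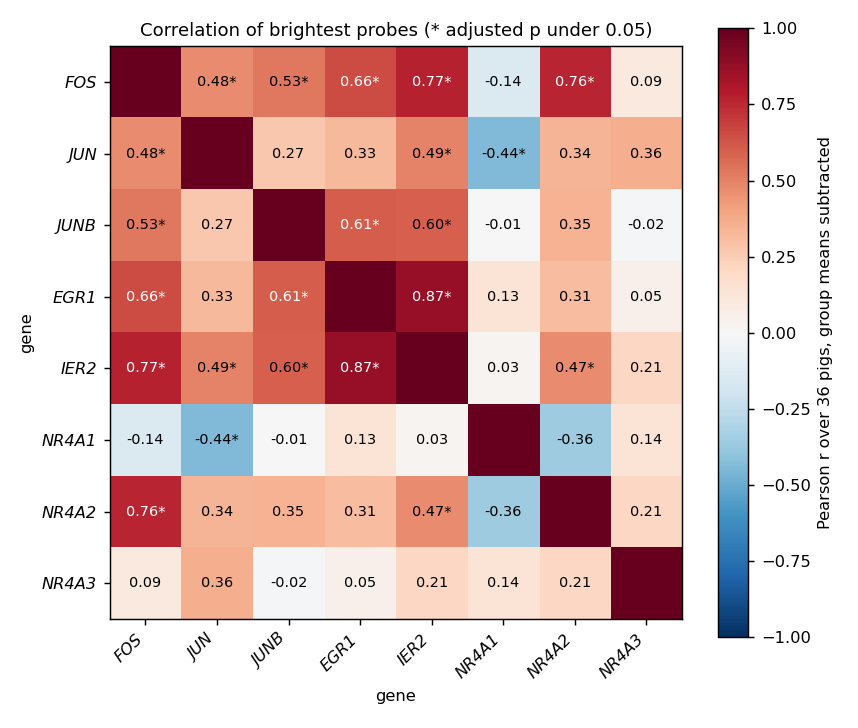
Pearson r between the brightest probes of the 8 genes over 36 pigs (both axes genes, colour r from -1 to 1, star for an adjusted permutation p under 0.05), after subtracting the mean of each breed and temperature group. FOS, JUNB, EGR1 and IER2 form a block of r from 0.53 to 0.87, and NR4A3 has no star.

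**Figure D4:**
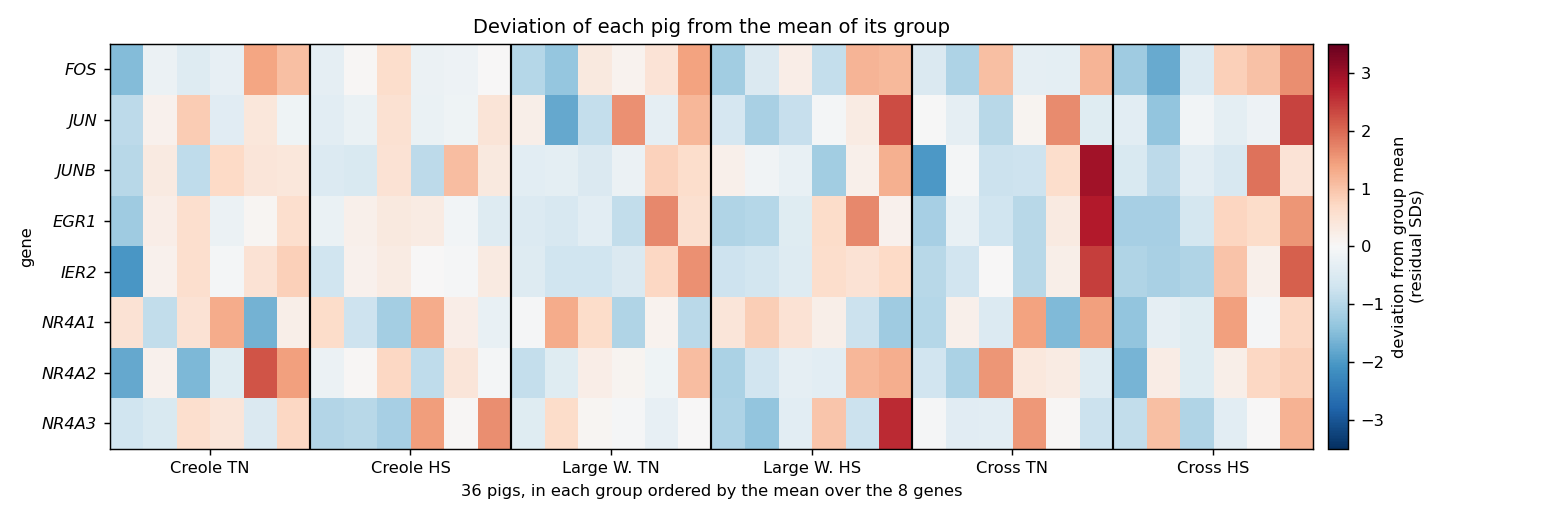
Deviation of each of the 36 pigs from its group mean, in residual SDs (colour), for the 8 genes (y axis), with the pigs of each group (x axis) ordered by their mean over the genes, an ordering made from these same values. Red and blue columns show pigs in which several genes were high or low together, FOS, JUNB, EGR1 and IER2 above all.

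Among 10393 named genes outside the list, those most like it were found by the correlation of each gene with the mean deviation of the 8 genes over the 36 pigs, group means subtracted. BTG2, an antiproliferative early response gene, came first (r = 0.79), followed by DUSP1, a phosphatase that switches MAP kinases off (0.74), EGR2, a relative of EGR1 (0.73), GADD45G, a stress-induced growth arrest gene (0.68), PPP1R15A, a phosphatase subunit of the integrated stress response (0.62), and RGS2, which dampens G protein signalling (0.62). The other 9 of the top 15 were MIS12, ANKRD46, DCTN3, FN3K, EIF1B, GNA14, PHYHIPL, MOBP and CXCL2, with r from 0.60 down to 0.54. The most negative were SLC7A2 (-0.57), CSPG4, GRIP1, PLEKHM2 and NANOG (-0.53). NANOG had a mean log2 value of 5.57, close to background. These r values are the extremes among 10393 genes and were not tested. Of the top 15, 4 stood in a list of other immediate-early genes and 1 in a list of feedback genes, both described below. The median r with the same mean deviation was 0.24 over the 31 other immediate-early genes with a value (28 above 0), 0.30 over 9 chromaffin markers (9 above 0) and 0.30 over 4 blood markers (3 above 0), against 0.00757 over all 10393 genes. It was 0.19 over 9 feedback genes (8 above 0), 0.16 over 6 endothelial (5 above 0) and 0.04 over 9 cortex markers (5 above 0), and below 0 over 6 adipocyte (-0.30, 0 above 0), 9 stroma (-0.15, 0 above 0) and 8 immune markers (-0.11, 2 above 0). Among the remaining lists it was 0.03 over 23 upstream genes (13 above 0) and -0.06 over 9 adrenal genes linked to NR4A receptors (4 above 0). The ranking shared 13 of its top 15 without JUNB, 11 with the dimmer NR4A1 probe and 9 without the NR4A receptors. BTG2 followed FOS (r = 0.88) and NR4A2 (0.80) more closely than EGR1 (0.50), whereas DUSP1 followed EGR1 (0.83) more closely than FOS (0.59) or NR4A2 (0.31). Those differences between r values were not tested.

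Other genes of the pathway were read in the temperature comparison from lists chosen by function. Of 38 other immediate-early genes, 31 had a value: 1 rose, 0 fell (0.41% and 0.501% of all probes), and 25 had a difference below 0, against 50% of all probes. With the slide as a block 1 rose and 3 fell (899 of all probes called, against 413), without Large White HS pig 5 1 rose and 2 fell (819 of all probes), and without slide 5 1 rose and 2 fell (341 of all probes). Without Creole HS pig 6 1 rose and 1 fell (727 of all probes), and without slide 1, 2, 3 or 4 the counts were 0 and 0 (34 to 171 of all probes). At an unadjusted p under 0.05 there were 16 of the 31, 13 of them lower in HS, against 13.5% of all probes. The gene that rose was NFKBIZ, a nuclear regulator of NF-kappa-B targets (0.42, SE 0.09, adjusted p = 0.0217 by limma). The lowest values were those of SGK1, a kinase induced by steroids and serum (-0.57, adjusted p = 0.0837), IER3 (-0.47, adjusted p = 0.0998) and CCN1, a matrix protein (-0.43, adjusted p = 0.101), none of which passed. After NFKBIZ the highest were GADD45B (0.18) and FOSL2, a FOS relative (0.12). The median over the 31 genes was -0.13, against 0.00 for all probes.

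Of 14 genes that end the early response, 9 had a value, and all 9 had a difference below 0, against 50% of all probes, with DUSP6 (-0.0035) and DUSP5 (-0.01) close to 0. Without slide 1 or slide 2 there were 7 of 9 below 0. DUSP1 fell by 0.52 (SE 0.13, adjusted p = 0.0417 by limma), and NAB2, a co-repressor of EGR1, had -0.40 (adjusted p = 0.0788) and SPRY2, an inhibitor of growth factor signalling, -0.21 (adjusted p = 0.128). Of 30 upstream kinases and transcription factors, 23 had a value, 0 passed by limma, 8 passed at an unadjusted p under 0.05 (13.5% of all probes), and 13 lay below 0 (50% of all probes) with a median of -0.06. Their lowest values were those of CAMK4 (-0.24), ELK4 (-0.14) and MAP2K1 (-0.13), and their highest those of MEF2C (0.22), PRKACB (0.16) and MRTFA (0.13). Of 11 adrenal genes linked to NR4A receptors, 9 had a value, and 8 of these lay below 0 (50% of all probes). Within breeds 7 of the 9 lay above 0 for Creole, 2 for Large White and 2 for cross pigs. NR0B1, a nuclear receptor that restrains steroid synthesis genes, rose by 0.50 (SE 0.10, adjusted p = 0.00759 by limma). NR5A1, the main activator of those genes, fell by 0.25 (SE 0.06, adjusted p = 0.0253). The steroidogenic genes in that list did not pass, with STAR, which carries cholesterol into mitochondria, at -0.15 (adjusted p = 0.257) and CYP11B2 at -0.17 (adjusted p = 0.434). With a slide left out, and so fewer arrays, these 4 genes kept their signs, with differences of -0.64 to -0.45 for DUSP1, 0.36 to 0.52 for NFKBIZ, -0.27 to -0.20 for NR5A1 and 0.45 to 0.54 for NR0B1. Calls were lost: DUSP1 and NFKBIZ did not pass without slide 1, 2, 3 or 4 (adjusted p 0.0609 to 0.243), NR5A1 without any of the 5 slides (0.0615 to 0.141), and NR0B1 without slide 2 (0.0541) or 3 (0.0663).

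**Figure D5:**
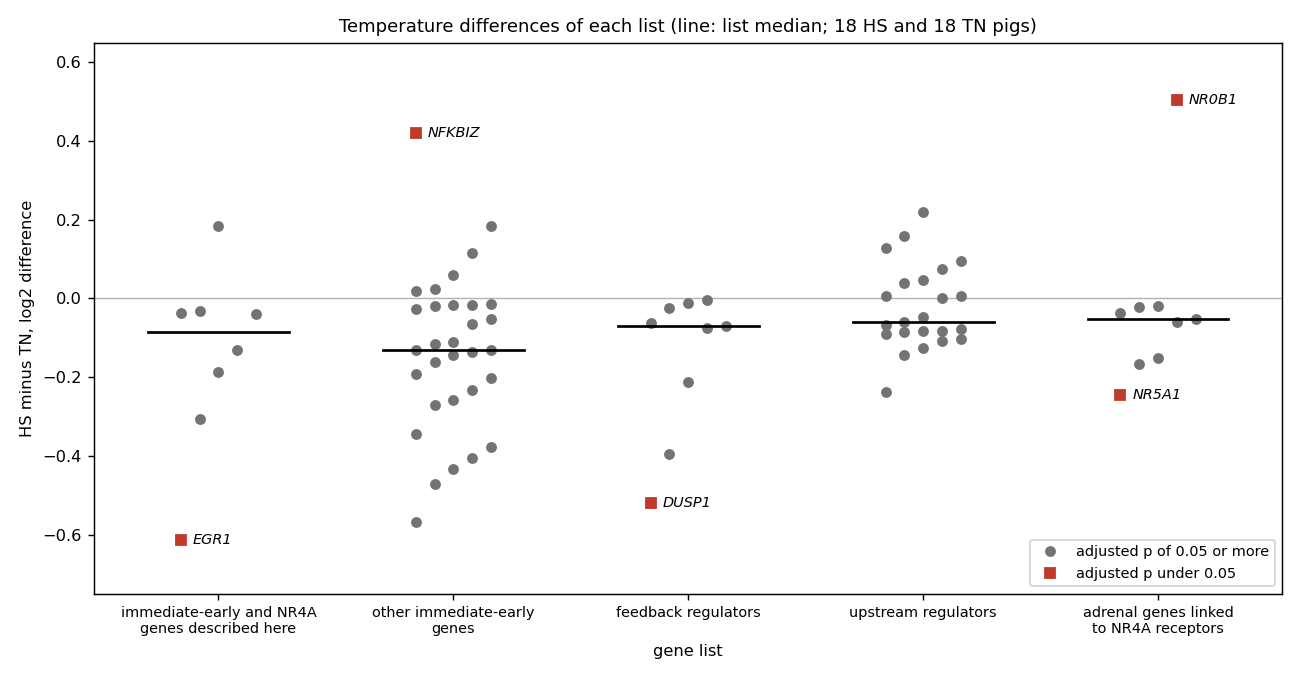
HS minus TN log2 difference (y axis) of each gene with a value, by list (x axis), with a line at the list's median and red squares for an adjusted p under 0.05 by limma. Of the other immediate-early genes 25 of 31 lie below 0, as do 9 of 9 feedback genes, against 50% of all probes.

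Markers of the medulla lay lower in HS in the same comparison, without passing the test over all 36 pigs. All 9 chromaffin markers with a value had a difference below 0, with a median of -0.21, 0 called by limma and 3 at an unadjusted p under 0.05, where 50% of all probes lay below 0 and 13.5% had such a p. All 9 stayed below 0 with any 1 slide, Creole HS pig 6 or Large White HS pig 5 left out, with medians from -0.10 (without slide 2) to -0.29 (without slide 5), and 1 marker was called lower without slide 5 or without Creole HS pig 6. Other marker lists also lay below 0 for most genes: 8 of 9 cortex markers with NR5A1 called, 4 of 4 blood, 5 of 6 adipocyte, 4 of 6 endothelial, 5 of 8 immune and 6 of 9 stroma markers, with list medians from -0.11 to -0.01 and no other call. Some of these counts moved in leave-outs. Below 0 lay 2 of 6 endothelial markers without slide 1 or 5, and 3 of 6 adipocyte markers without slide 3. Of the stroma markers 4 of 9 did so without Creole HS pig 6. The lowest difference in these lists over all 36 pigs was that of HBB, a globin, in the blood list (-0.67, adjusted p = 0.271 by limma). PNMT, the enzyme that makes adrenaline, had -0.35 (adjusted p = 0.0789) and SCG2 and SCG5, granule proteins, -0.34 (adjusted p = 0.117) and -0.24 (adjusted p = 0.201). The mean over these markers lay between 13.08 and 14.10 in the TN pigs (median 13.63) and between 12.88 and 13.77 in the HS pigs (median 13.42). Over the pigs, with group means subtracted, the mean of the chromaffin markers had r = 0.53 with FOS (adjusted permutation p = 0.0835). For that pair Spearman rho was 0.55, and r was 0.51 without the 2 farthest pigs. The chromaffin mean had r = 0.43 with JUNB, 0.42 with NR4A2 and 0.10 with EGR1. Other lists reached like sizes: FOS had r = -0.48 with the adipocyte and 0.44 with the blood markers, and JUNB 0.47 with the endothelial markers. The means of 7 marker lists and 2 array measures were set against the 8 genes, and 0 of these 72 relations passed an adjusted permutation p of 0.05, with 12 at an unadjusted p under 0.05. Between the breeds 6 of the 9 chromaffin markers were called higher in Large White than in Creole pigs, where 5.98% of all probes were called higher and 5.5% lower and none of the 8 genes passed. The part of the medulla in the EGR1 and JUN values was not tested.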

How the data were processed

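The authors labelled adrenal RNA with Cy3 and extracted the spots with Feature Extraction 10.10.1.1, and the deposited scanner files hold spot intensity, not normalized between arrays. The table deposited by the authors holds log2 values of 45348 probes after quantile normalization of the median pixel intensity. It held 0 columns of other samples. Quantile values made here from the scanner files differed from it by a median of 0.00698. FOSB and ATF3 were read from those quantile values, and "well above background" is the scanner's own mark. The number of arrays limits the precision.

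Groups came from the labels. Tests used limma 3.58.1 (lmFit, eBayes) in R 4.3.3 with statmod 1.5.0 on all 45348 probes, with breed and temperature, or 1 mean per group, as the terms, a Benjamini-Hochberg adjustment and a threshold of 0.05. Pen, day of slaughter and parents, random effects in the study's own model, were not used. Correlations used permutation tests of 100000 exchanges (numpy 2.4.6). The procedure was tested on simulated data.

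The members and the gene lists were chosen with earlier results of these data known. Named were all members, list genes past the threshold and the 3 largest falls and rises per list. So were the 15 most and 5 least alike genes. As an exception to that rule, marker lists other than chromaffin were given by counts, with HBB, ADIPOQ and FABP4 named as examples. For a gene with several probes the brightest stood for it. Gene coordinates are those of RefSeq. Alternatives are given in the closing section, and leaving out pigs or slides for the lists and pigs for the spread, the rank correlations and the changed likeness scores were added after seeing the data. Other tissues were not analysed here.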

Additional observations from a re-analysis of the deposited data

Results flagged for a closer look

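In each of 114 sets of 6 pigs (19 probes in 6 groups), the highest and lowest pig were compared with the other 5, and in 9 sets 1 pig lay far from the rest. Chance gives about 1 in 20, or 5.7 sets, and probes of 1 gene are not independent. IER2 had such a pig in 3 groups: Creole TN pig 3 at 11.36 (the others 11.98 to 12.27), Creole HS pig 3 at 11.70 (the others 11.91 to 12.02) and cross TN pig 2 at 12.86 (the others 11.78 to 12.16). NR4A3 had 1 pig, cross TN pig 3, on 3 of its probes, at 9.28 (the others 7.08 to 7.86), 8.0 (the others 6.27 to 6.83) and 9.08 (the others 6.99 to 7.68), of which the first and the last carry the same sequence. JUN had 2 such pigs, each on 1 of its repeat probes: cross HS pig 4 at 15.82 (the others 14.81 to 15.16) and cross TN pig 1 at 15.46 (the others 14.79 to 14.99). FOS had Creole HS pig 2 at 13.42 on 1 of 5 probes (the others 12.93 to 13.10). No such value was found for JUNB, EGR1, NR4A1 or NR4A2.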

How the results depend on the processing

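The count of genes past the threshold with temperature was 1 and became 0 with the processed signal scaled to its 75th percentile, all probes of the array, the row of the slide as a block, no breed term, array weights or a variance prior with a trend, and without slide 1, 2, 3 or 4. Leaving out 1 pig gave 0 to 2 genes. EGR1 kept its sign in all of these (-0.75 to -0.52, adjusted p 0.0293 to 0.258), and NR4A3 changed sign in 14 of 55 settings without passing in any. The count over all probes, 413, lay between 34 and 899 in other settings and between 229 and 819 with 1 pig left out, the cause of which was not tested. Counts of 0 genes for the breeds, the cross, the interaction and temperature within breeds stayed 0 in all settings tried. Within slides, 6 called correlations ran the other way on 1 slide: FOS with JUN (-0.39, slide 5), FOS with JUNB (-0.072), JUNB with EGR1 (-0.53), JUNB with IER2 (-0.55) and IER2 with NR4A2 (-0.14) on slide 4, and JUN with NR4A1 (0.0015) on slide 3. With slide means subtracted 11 pairs passed, by rank 10. No paired analysis was possible because the labels give no litter, pen or shared number that would pair the pigs. FOSB and ATF3 were too near background for a measured fold.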

Other observations

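NR4A3 in the Creole pigs fell into separate ranges. Of the 12 pigs, 6 (3 TN and 3 HS) lay between 6.16 and 6.58 and the other 6 between 7.32 and 8.86. By slide, the 4 Creole pigs on slides 1 and 2 lay between 6.16 and 6.58, the 3 on slide 3 between 6.29 and 7.50, and the 5 on slides 4 and 5 between 7.32 and 8.86. In the Large White pigs the ranges were 6.98 to 7.28, 7.24 to 10.22, 6.36 to 7.34, 7.32 to 8.63 and 6.86 to 6.98 on slides 1 to 5. In the cross pigs slide 1 held 1 pig, at 6.06, and the ranges on slides 2 to 5 were 6.26 to 8.10, 7.08 to 8.28, 6.74 to 9.28 and 7.11 to 7.78. The mean NR4A3 deviation over all breeds was -0.56, 0.07, -0.39, 0.49 and 0.10 on slides 1 to 5. Whether NR4A3 differed between slides was not tested.

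In the breed comparison, 2 of the 31 other immediate-early genes passed between Large White and Creole pigs, against 11.5% of all probes: EGR2 was higher by 0.34 (adjusted p = 0.0274 by limma) and CEBPB lower, at -0.29 (adjusted p = 0.0419). Of the 23 upstream genes with a value, 2 were called higher in the Large White pigs and 0 lower (5.98% and 5.5% of all probes). They were PRKACB, a catalytic subunit of protein kinase A (0.52, adjusted p = 3.31e-05 by limma), and CAMK4, a calcium-dependent kinase (0.72, adjusted p = 0.000651). Of the 9 adrenal genes with a value linked to NR4A receptors, 3 were called lower in the Large White pigs (5.5% of all probes). These were HSD3B1 (-0.78), CYP11B2 (-0.37) and STAR (-0.34), which all serve steroid synthesis. In that list 0 were called higher (5.98% of all probes), though 3 of the 9 lay above 0. In the same comparison 4 of 6 adipocyte markers were called lower (5.5% of all probes), with ADIPOQ at -1.62 and FABP4 at -1.33, and 6 of 9 chromaffin markers higher (5.98% of all probes). Of the other marker lists, 2 of 6 endothelial markers were called higher, and 2 of 9 cortex, 1 of 8 immune and 1 of 9 stroma markers lower. The part of these cells in the values above was not tested. NR4A1, NR4A2 and NR4A3 did not pass in that comparison.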
